A study of Mus musculus with 8 samples.

Results

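Bcl11b binding in mouse thymocytes piled up at 10 short loci, where 10 to 12 bound intervals followed each other within a few kilobases. The intervals are 201 bp pieces of the genome in which the authors counted reads of Bcl11b chromatin immunoprecipitation and sequencing (ChIP-seq). Those on chromosomes 1 to 19 were sorted by position and joined into chains wherever the gap to the next interval was at most 3000 bp. Every interval of a chain of 10 or more was taken, which gave 106 of 93708 intervals (0.113%). Positions only, and no level or genotype difference, entered this rule. Which intervals exist was set earlier by the authors' peak calling, which can depend on signal. The rule itself limits every gap to 3000 bp, so the gaps describe the chains and do not test how dense they are. Between neighbours within a chain the median gap was 187 bp and the range 4 to 2979 bp. Of the 96 gaps 50 were under 200 bp.

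The limits of the rule mattered for the number of loci. With gaps of up to 2000 bp there were 6 such chains with 65 intervals, and with gaps of up to 5000 bp there were 119 chains with 1315 intervals. Just inside the limit stood 5 chains of 10 intervals, whose summed log2 fold changes of mutant over wild type ranged from -0.11 to 0.23. Just outside it stood 24 chains of 9, with -0.26 to 0.51. The upper end belonged to the chain at Socs3, which encodes a feedback inhibitor of cytokine signalling. Its summed signal, in counts per 1000000 (CPM), averaged 157 in wild type libraries and 224 in N440K libraries. This was the 1 chain of the 24 that edgeR called (adjusted p = 0.000307), and it is named here after its values were seen. Of chains of 7 to 9 intervals 3.46% were called and of all tested chains 3.45%, so 1 of 24 does not set these chains apart.

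The thymocytes were freshly isolated from mice of 2 genotypes. Wild type animals were Bcl11b+/+, and the mutant animals were Bcl11b+/N440K, with 1 normal allele and 1 allele that carries an amino acid exchange. Each genotype had 3 ChIP libraries made with the same rabbit antibody, and 2 wild type inputs were not used here, so no level over input is given. Age, sex and strain, whether replicates came from separate animals, and whether the antibody binds both protein forms alike are not given in the sources used here. P-values therefore measure only how these libraries vary, which may be technical variation. With no RNA data, the cell type was not checked against marker expression. Counts per library totalled 1787899 to 2661343, and each dense chain held 218 to 929 reads in a library. CPM here are counts per 1000000 counts in tested intervals after scaling between libraries, and the CPM of a chain is the sum over its intervals.

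Bcl11b binds DNA through zinc fingers and recruits chromatin-modifying complexes, among them the NuRD complex. Developing T cells need it to complete their commitment to the T lineage and to shut off programs of other lineages. Transcription factors often bind many neighbouring positions at highly active regulatory regions. In ChIP-seq such regions appear as runs of peaks, and a broad enriched domain can be split into several intervals by a peak caller.

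Most of the loci lay at an end of a gene. A protein-coding gene had an end within 1 kb of 9 of the 10 chains. The longest chain in intervals covered one end of Trim8 (chr19:46499840-46503895, mm10), which encodes a ubiquitin ligase of the tripartite motif family. It held 12 intervals in 4.06 kb, 7 in the gene body and 5 at lower coordinates, and the intervals made up 59.5% of its length, the densest packing of the 10. The chain at Ier2 (chr8:84655654-84665175), an immediate early gene switched on by growth signals, held 11 intervals over 9.52 kb, the widest span. It enclosed the whole gene body of 1522 bp, with 4 intervals in the body, 4 at lower and 3 at higher coordinates. Its largest gap was 2979 bp, so it was joined only just within the limit.

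At Myc, which encodes a transcription factor that drives growth and division, 11 intervals covered chr15:61983300-61988122, with 6 in the gene body and 5 at lower coordinates. That chain stood apart at lower coordinates, where the nearest other interval was 218 kb away. At higher coordinates the nearest was 20.3 kb away, and 4 other intervals lay within 50 kb of the chain's ends. At Mxi1, whose product pairs with Max and opposes Myc, 10 intervals covered chr19:53310371-53314382, all within the gene body.

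At Arid2, which encodes a subunit of the PBAF chromatin remodelling complex, the chain (chr15:96284017-96288660, 10 intervals) bridged the ends of 2 genes, with 8 intervals in the neighbouring gene Gm38469 and 2 in Arid2. At Ssbp4, of a gene family named for single-stranded DNA binding, 10 of the 11 intervals (chr8:70608097-70612176) lay outside the gene body at higher coordinates.

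All 10 intervals of the chain at Slc43a2, an amino acid transporter gene, lay in its body (chr11:75530503-75538068). The chain at Arl4c, the gene of a small GTP-binding protein, placed 7 of 10 intervals in the body (chr1:88699501-88706086), and so did the chain that enclosed the body of Fam43a (chr16:30597083-30603517). The 1 chain with no protein-coding gene end within 1 kb held 11 intervals (chr15:74930527-74935480). It overlapped the noncoding RNA gene Gm39556 and lay 19.5 kb from Ly6e, the nearest protein-coding gene, which encodes a lipid-anchored surface protein of the Ly6 family; it is called the Ly6e chain here.

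**Figure D1:**
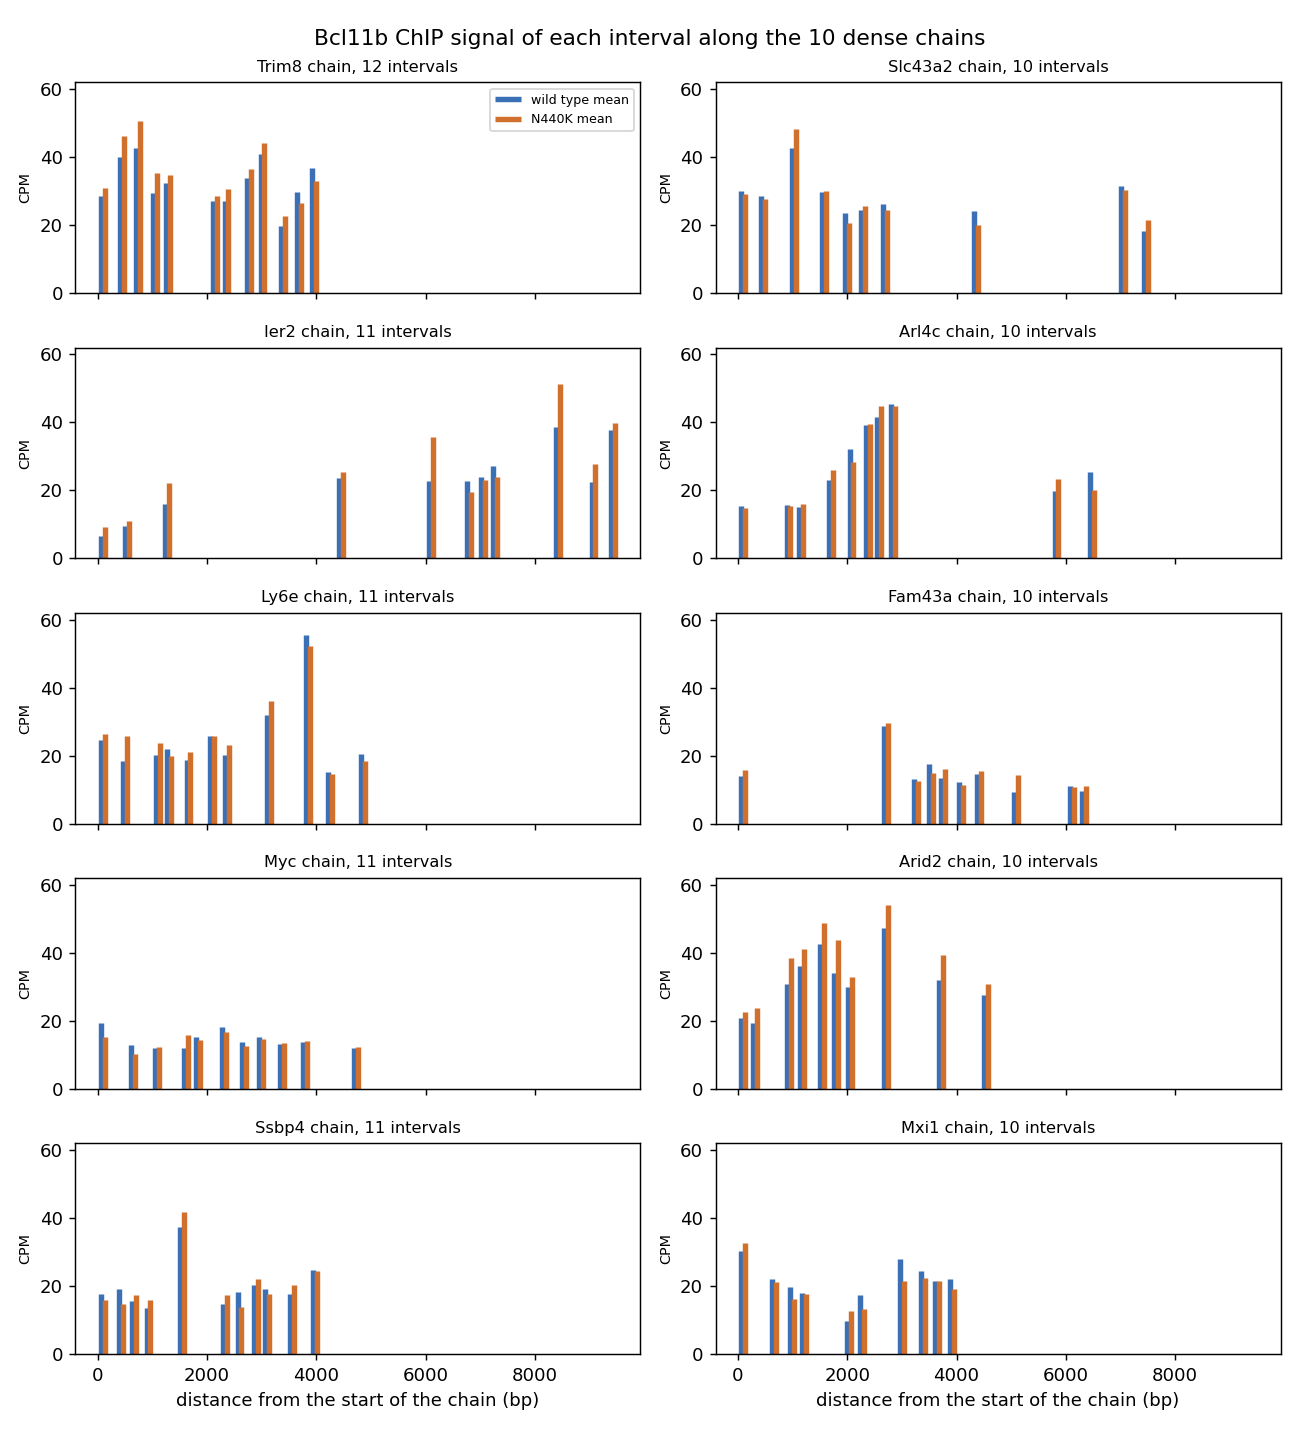
Mean CPM of each interval (vertical axis) against distance from the start of its chain in bp (horizontal axis), 1 panel per chain, with wild type means (n = 3 libraries) in blue and N440K means (n = 3) in orange, set side by side at each interval. The Ly6e, Ssbp4 and Fam43a chains have a single tall interval, of 55.6, 37.3 and 28.8 CPM in wild type. In the Myc chain the strongest stands only 1.62-fold above the weakest.

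The RefSeq promoter table on GRCm38.p6, whose coordinates equal those of mm10, had an entry with a start inside the chain for 5 of these genes. Their sequences are shown because the intervals can be placed on them base by base. Each runs from 250 bases before to 50 bases after the annotated start, 5′ to 3′ on the gene's strand, and capitals mark the bases that lie inside a bound interval of the chain.
Ssbp4 (chr8:70608265-70608564, minus strand): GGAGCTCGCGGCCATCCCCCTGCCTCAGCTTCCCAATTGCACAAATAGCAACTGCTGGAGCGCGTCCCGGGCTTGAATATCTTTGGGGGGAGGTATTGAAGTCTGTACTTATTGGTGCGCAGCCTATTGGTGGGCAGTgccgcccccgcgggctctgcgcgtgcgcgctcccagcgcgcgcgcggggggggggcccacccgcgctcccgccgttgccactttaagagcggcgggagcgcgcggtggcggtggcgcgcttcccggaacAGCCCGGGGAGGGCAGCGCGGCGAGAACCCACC
Slc43a2 (chr11:75531444-75531743, plus strand): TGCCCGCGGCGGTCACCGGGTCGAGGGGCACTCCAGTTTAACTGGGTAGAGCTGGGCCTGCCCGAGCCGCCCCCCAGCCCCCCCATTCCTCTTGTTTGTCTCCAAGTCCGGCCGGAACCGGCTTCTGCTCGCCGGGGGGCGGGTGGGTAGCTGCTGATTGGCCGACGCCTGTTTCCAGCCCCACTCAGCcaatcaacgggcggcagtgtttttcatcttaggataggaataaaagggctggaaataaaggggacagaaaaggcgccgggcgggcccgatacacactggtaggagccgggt
Arl4c (chr1:88702142-88702441, minus strand): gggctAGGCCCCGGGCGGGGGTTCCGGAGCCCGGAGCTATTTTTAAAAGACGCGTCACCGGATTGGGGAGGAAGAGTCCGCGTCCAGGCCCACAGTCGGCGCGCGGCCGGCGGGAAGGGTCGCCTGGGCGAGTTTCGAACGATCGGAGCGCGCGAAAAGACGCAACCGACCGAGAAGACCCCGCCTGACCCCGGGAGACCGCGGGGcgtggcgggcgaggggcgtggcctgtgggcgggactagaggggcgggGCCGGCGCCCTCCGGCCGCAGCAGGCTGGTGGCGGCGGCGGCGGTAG
Fam43a (chr16:30599473-30599772, plus strand): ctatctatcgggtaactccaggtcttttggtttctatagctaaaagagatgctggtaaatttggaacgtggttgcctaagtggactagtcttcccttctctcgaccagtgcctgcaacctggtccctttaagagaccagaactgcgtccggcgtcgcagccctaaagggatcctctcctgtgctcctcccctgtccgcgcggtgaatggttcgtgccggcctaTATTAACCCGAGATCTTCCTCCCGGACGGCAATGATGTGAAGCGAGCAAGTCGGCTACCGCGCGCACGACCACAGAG
Mxi1 (chr19:53310256-53310555, plus strand): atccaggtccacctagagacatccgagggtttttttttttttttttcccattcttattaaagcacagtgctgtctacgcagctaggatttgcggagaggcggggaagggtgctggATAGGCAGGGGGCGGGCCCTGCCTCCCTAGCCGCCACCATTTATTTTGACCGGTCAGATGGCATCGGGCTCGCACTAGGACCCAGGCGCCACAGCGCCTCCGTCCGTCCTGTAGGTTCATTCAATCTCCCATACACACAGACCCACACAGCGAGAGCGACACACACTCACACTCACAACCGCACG

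At 4 of these 5 genes the strongest wild type interval of the whole chain was the one on the promoter. Its centre lay 162 bp before the start at Slc43a2, 145 bp before it at Arl4c, 73 bp after it at Fam43a and 35 bp before it at Mxi1. At Arl4c the lead rested on wild type replicate 1, with 54.5 CPM against 42.8 CPM in the neighbouring interval (chr1:88701988-88702188). In wild type replicate 3 the neighbour was higher, with 40.8 CPM against 39.9 CPM. At Ssbp4 the strongest interval was centred 1327 bp before the start, and 10 of its 11 interval centres lay upstream. Slc43a2 and Arl4c had 7 interval centres each downstream of the start and 3 upstream, while Fam43a and Mxi1 had 9 downstream and 1 upstream. The starts used at Mxi1 (53310506) and Slc43a2 (75531694) lay inside the gene bodies, which began at 53310128 and 75529915. Intervals before these 2 starts were therefore still in the body. For Slc43a2, which had 2 starts in the table, the start whose window overlapped more wild type signal was taken, so its place under the strongest interval follows in part from that choice. The chains at Trim8, Ier2, Myc and Arid2 also held a gene end but no promoter entry, so they are not in this count. Their strongest intervals began 645, 8324, 0 and 2606 bp from the chain start. The nearest gene ends lay at 1808, 7198, 2041 and 3381 bp.

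Bound intervals covered 248 of the 300 bases shown at Arl4c, 189 at Slc43a2, 185 at Mxi1, 171 at Ssbp4 and 77 at Fam43a. All 5 sequences held more CG pairs than the median of 7 over 32851 promoters in the table. That table covers 27025 genes, more than the 21887 protein-coding ones, so these 5 protein-coding genes were not compared with protein-coding genes alone. Arl4c had 44, more than 97.8% of the table, Ssbp4 had 35, Slc43a2 22, Fam43a 21 and Mxi1 17. Short words bound by thymocyte factors were searched on both strands. The Runx word TGTGGT was found in 1 of the 5, in the Fam43a sequence on the reverse strand 42 bases after the start and inside the interval. It was in 16.8% of all promoters in the table. The Ets word CGGAAG was in 0 of the 5 and in 16.9% of the table, and the E protein word CAGGTG in 0 and in 20.2%. The word AGATAA for factors of the Gata family was in 0 of the 5 and in 11.2% of the table, and the Tcf and Lef word CTTTGA in 0 and in 16%. A match is of letters in this window, and neither a match nor its lack says whether a factor binds.

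Dense did not mean strongest. The 106 intervals had a median of 22.2 CPM in wild type, against 11.9 CPM over all 63098 tested intervals, and ranged from 6.69 to 55.6 CPM. Of the 106, 100 lay above the median of all tested intervals and 63 above the upper quartile of 19.9 CPM. None was among the top 1% of tested intervals, which at that share does not set the 106 apart. The maximum over all tested intervals was 242 CPM. All 106 passed the filter on low counts.

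Within a chain the signal varied more at some loci than at others. The strongest interval stood 5.78-fold above the weakest at Ier2, 3.66-fold at Ly6e and 1.62-fold at Myc, with the other 7 chains between 2.15-fold and 3.13-fold. The strongest interval of the 106 was at Ly6e (chr15:74934272-74934472), with 65.1, 48.2 and 53.7 CPM in the wild type and 55.9, 50.6 and 50.5 CPM in the N440K libraries. It made up 20.4% of its chain's wild type signal, and the genotypes overlapped. Strong intervals also stood at Arid2 (47.2 ± 8.26 CPM), Trim8 (42.8 ± 5.04) and Slc43a2 (42.6 ± 7.20; SD, n = 3 wild type libraries). At Arl4c the strongest interval had 54.5, 41.6 and 39.9 CPM in the wild type libraries, a mean of 45.3 CPM. The same interval was strongest in both genotypes in 8 of the 10 chains. The exceptions were Myc and Arl4c. Across the 106 intervals, log2 CPM of the wild type and N440K means correlated at r = 0.938; the intervals share loci and libraries, so this is a description.

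The comparison asked whether these loci bind differently in the mutant. No dense chain and no interval in one passed the test. For a value per locus, counts were summed over each chain, and all chains of any length, single intervals included, were tested together with edgeR's quasi-likelihood test. Of all 35893 tested chains 1238 (3.45%) were called at a Benjamini-Hochberg adjusted p under 0.05, 1.16% higher and 2.29% lower in N440K. Of the 10 dense chains 0 were called by edgeR, 0 by DESeq2 (0.605% of all chains) and 1, at Arid2, by limma voom (2.69% of all chains). At an unadjusted edgeR p under 0.05 there were 2, at Arid2 and Ier2, against 16% of all chains. A share of 3.45% would give 0.345 of 10 chains, so 0 calls do not set the dense chains apart from the rest.

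The Arid2 chain had 323, 312 and 328 CPM in the wild type and 368, 377 and 382 CPM in the N440K libraries. All mutant libraries lay above all wild type libraries, and all 10 intervals had a positive log2 fold change, from 0.13 to 0.36. The summed log2 fold change was 0.23 ± 0.075 (SE), a mean 17.1% higher, with a 95% interval of 0.076 to 0.38 and an edgeR adjusted p of 0.0816. The adjusted p was 0.0142 with limma voom and 0.0472 with no filter on low counts, and it ranged up to 0.344 over the 14 alternatives.

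At Ier2 the summed signal was 250, 261 and 243 CPM in the wild type libraries and 283, 296 and 287 CPM in N440K libraries. The genotypes did not overlap here either. The log2 fold change was 0.20 ± 0.079 (SE), with a 95% interval of 0.038 to 0.36 and an edgeR adjusted p of 0.176 (0.085 to 0.508 over the alternatives). These were the 2 dense chains of 10 in which every mutant library was higher, against 9.09% of all tested chains, and in 0 chains was every mutant library lower, against 11.1%.

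The Trim8 chain, with the highest summed signal, had 403, 364 and 399 CPM in the wild type libraries and 401, 454 and 405 CPM in N440K libraries, and the groups overlapped. Its log2 fold change was 0.11, with a 95% interval of -0.039 to 0.26. At Ly6e the values were 283, 256 and 281 CPM against 267, 302 and 293 CPM, with a log2 fold change of 0.07 (-0.088 to 0.24). Fam43a had 135, 149 and 147 CPM in the wild type libraries and 129, 166 and 160 CPM in N440K libraries, a log2 fold change of 0.07 (-0.13 to 0.27). N440K replicate 1 was the lowest mutant library at all 3 loci, and replicate 2 the highest.

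Myc and Mxi1 had the most negative values. The Myc chain had 157, 159 and 158 CPM in the wild type and 145, 168 and 143 CPM in the N440K libraries, which lay on both sides of the wild type values. Its log2 fold change was -0.06 (-0.25 to 0.13). The Mxi1 chain had 201, 212 and 227 CPM in the wild type libraries and 200, 192 and 204 CPM in N440K libraries, and the groups overlapped in a narrow band. Its log2 fold change was -0.11 (-0.28 to 0.063), and 8 of its 10 intervals had a negative value.

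The other 3 chains had summed values near 0. Ssbp4 had 219, 219 and 218 CPM in the wild type libraries and 216, 228 and 221 CPM in N440K libraries, with a 95% interval of -0.15 to 0.19 on the log2 scale. Slc43a2 had 291, 279 and 268 CPM against 290, 295 and 250 CPM (-0.17 to 0.16), and Arl4c 284, 270 and 264 CPM against 263, 300 and 256 CPM (-0.16 to 0.17). For these loci the intervals leave room for a level between 0.89 and 1.14 times that of wild type. Among the 10 loci, the bounds ran from 0.823 times (Mxi1) to 1.3 times (Arid2).

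**Figure D2:**
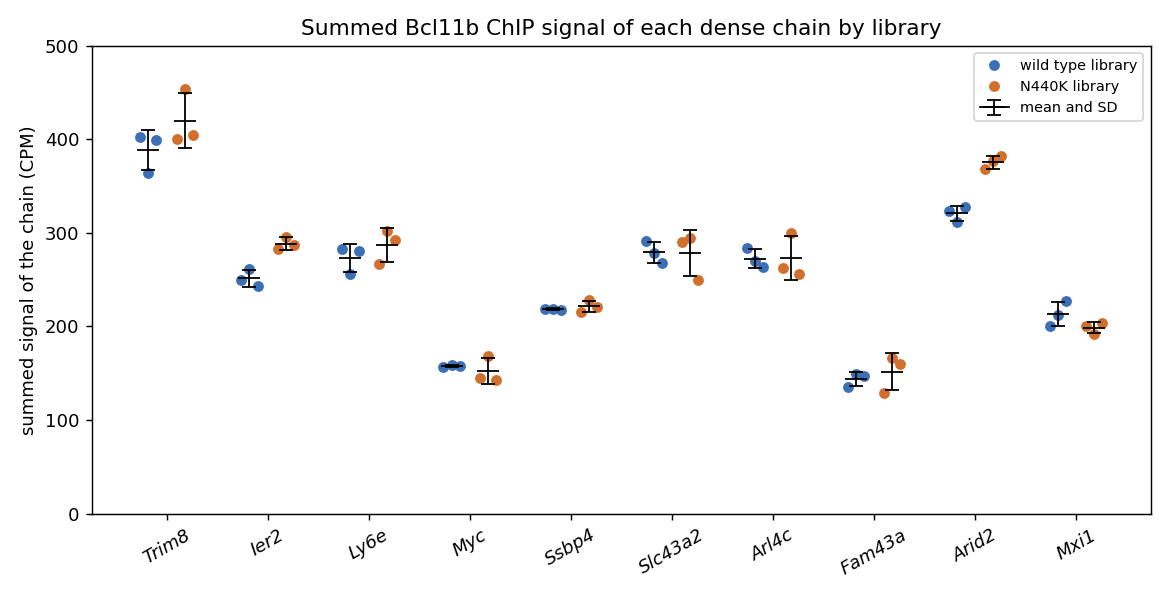
Summed CPM of each dense chain (vertical axis) for every library, with 3 wild type libraries in blue and 3 N440K libraries in orange per chain (horizontal axis), and black bars for the mean and SD. The genotypes separate at Ier2 and Arid2 and overlap at the other 8 chains; the levels run from 129 CPM at Fam43a to 454 CPM at Trim8.

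Of the 10 summed log2 fold changes 7 were positive and 3 negative, against 48.9% positive among all tested chains, and their median was 0.05 against -0.0076. Chains of 7 to 9 had 63% positive and a median of 0.04, and of the 24 chains of 9 intervals 17 were positive. The number of positive values ran from 4, with loess offsets that remove a trend with signal strength, to 8 over the alternatives. The share of all counts that fell in the dense chains was 0.23%, 0.227% and 0.229% in the wild type and 0.232%, 0.251% and 0.235% in the N440K libraries. The groups did not overlap, and the difference of 0.011 percentage points gave p = 0.1 in an exact two-sided permutation test, the smallest that 3 against 3 libraries allow. The difference was 0.00507 without N440K replicate 2, which had the highest share, and 0.00609 without the Arid2 chain.

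At single intervals the pattern was similar. Of all 63098 tested intervals 720 (1.14%) were called by edgeR. None of the 106 was called by edgeR, by DESeq2 (0.0951% of all intervals) or by limma voom (0.504%), where a share of 1.14% would give 1.21. At an unadjusted edgeR p under 0.05 there were 7 (6.6%), 6 of them higher and 1 lower in N440K, against 12.7% of all intervals. Every mutant library lay above every wild type library at 9 of the 106 (8.49%, against 8.34% of all) and below at 5 (4.72%, against 8.95%). Log2 fold changes ran from -0.40 to 0.62, with a median of 0.07 against 0.0037 over all tested intervals.

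The smallest p among the 106 belonged to an interval on the Ier2 gene body (chr8:84661652-84661852), named after its values were seen. It had 19.2, 28.4 and 20.6 CPM in the wild type libraries and 34.9, 37.8 and 34.4 CPM in N440K libraries, and the groups did not overlap. The log2 fold change was 0.62 ± 0.18 (SE), with an edgeR adjusted p of 0.0711. Wild type replicate 2 was the nearest to the mutant level, and leaving it out raises the difference in itself. Without it the value was 0.83 and the edgeR adjusted p 0.0336. The interval was not called when any other single library was left out.

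Whether a chain changed evenly was tested with edgeR's diffSpliceDGE, which asks if intervals of a chain differ in their genotype change. Of all 15432 chains with at least 2 tested intervals, 3 (0.0194%) were called, and of the 10 dense chains 0 were called, with 1, at Ier2, at an unadjusted p under 0.05 (0.0247; adjusted p = 0.656), against 7.07% of all chains. Other tools were not run for this question. At Ier2 the 3 intervals nearest the gene end at higher coordinates had log2 fold changes of -0.19, -0.07 and -0.18. The interval nearest the other end had 0.62, and the strongest interval, outside the body, 0.41. The strongest Ier2 interval (chr8:84663978-84664178) had 41.5, 34.2 and 40.3 CPM in the wild type libraries and 55.9, 55.5 and 42.2 CPM in N440K libraries (edgeR adjusted p = 0.19). The other 9 chains had unadjusted p-values of 0.306 to 0.985, with the highest at Arid2.

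**Figure D3:**
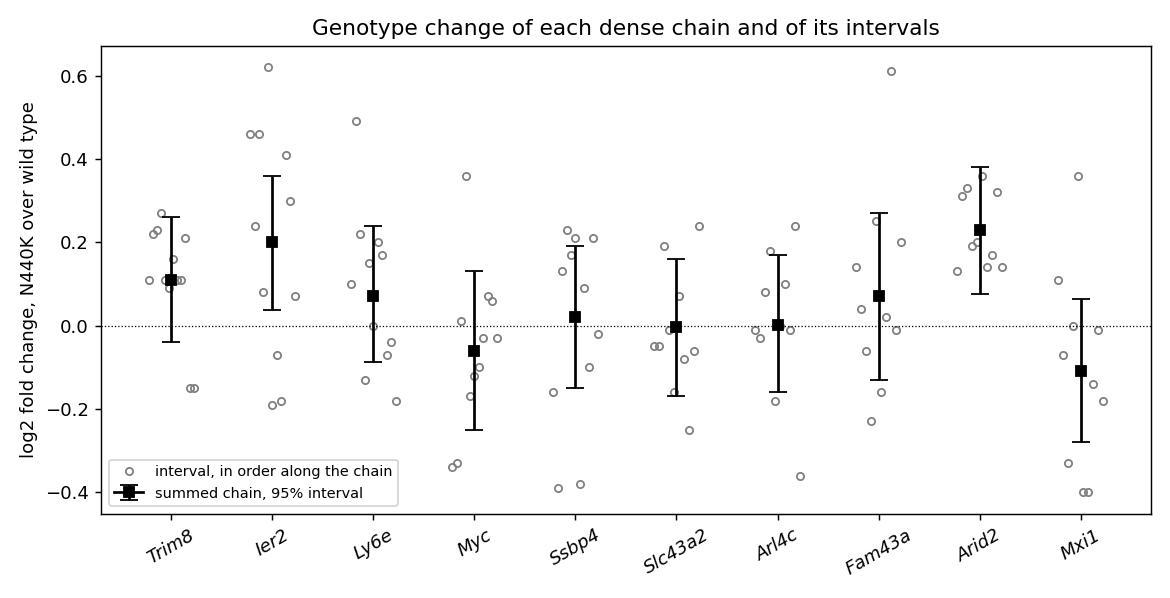
Log2 fold change of N440K over wild type (vertical axis) for each dense chain (horizontal axis): black squares give the summed chain with its 95% interval, open grey circles its single intervals in order along the chain. Only the intervals of the Arid2 and Ier2 sums leave out 0, and all 10 circles of the Arid2 chain lie above 0.

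Intervals of longer chains had more signal and lay nearer to genes than those that stood alone. On chromosomes 1 to 19 the median wild type signal over all intervals, tested or not, was 4.82 CPM for the 27503 intervals that stood alone, 9.81 CPM in chains of 3 to 4, 16.7 CPM in chains of 7 to 9 and 22.2 CPM in the dense chains. The share of intervals within 1 kb of the end of a protein-coding gene was 11.6% for intervals alone, 25.7% in pairs, 39.4% in chains of 7 to 9 and 35.8% (38 of 106) in dense chains. In chains of 3 to 4 it was 36.9%. Counted by chain, a gene end lay within 1 kb of 44% of chains of 3 to 4, 58.1% of chains of 5 to 6, 70.6% of chains of 7 to 9 and 90% of dense chains, and longer chains also span more bases. Called intervals made up 1.65% of tested single intervals, 0.925% in chains of 3 to 4, 0.52% in chains of 7 to 9 and 0 of 106 in dense chains. The share of tested chains called on summed counts took another course: 2.22% of single intervals, 3.4% of pairs, 4.98% of chains of 3 to 4, 5.68% of chains of 5 to 6, 3.46% of chains of 7 to 9 and 0 of the 10 dense chains. These classes were not tested against each other, and 47.3% of intervals alone but 100% of those in dense chains passed the filter on low counts.

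**Figure D4:**
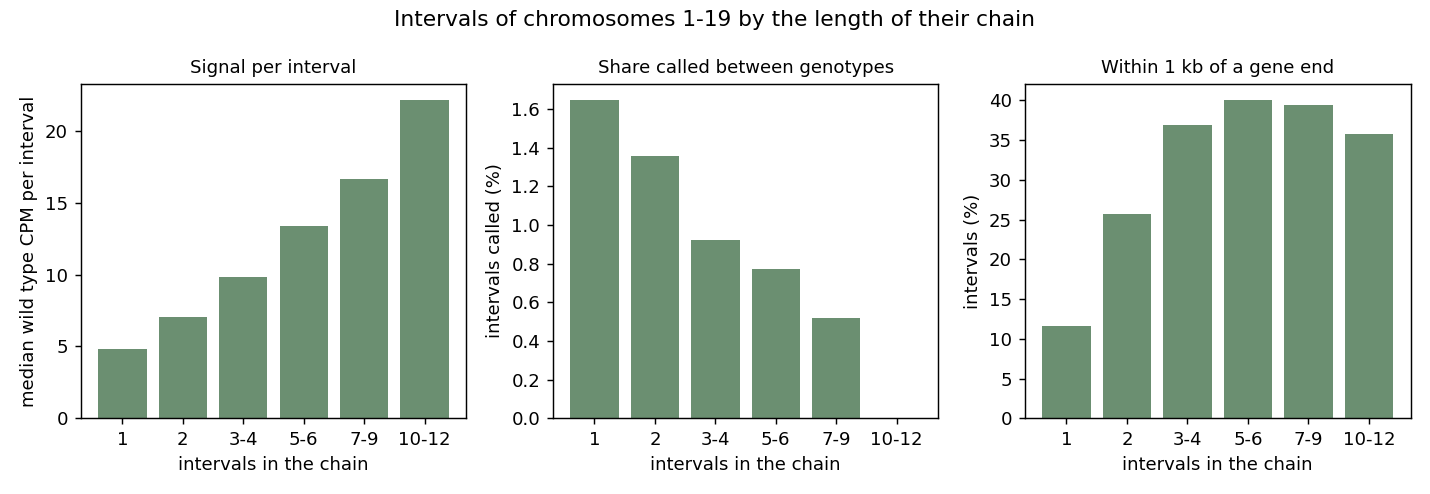
Intervals of chromosomes 1 to 19 by the number of intervals in their chain (horizontal axes): median wild type CPM per interval, percent of tested intervals called by edgeR, and percent of intervals within 1 kb of a protein-coding gene end, as bars from 0. Signal rises from 4.82 to 22.2 CPM with chain length, while the called share of intervals goes from 1.65% to 0 of 106; the called share of summed chains, not drawn, is 2.22% for single intervals, 5.68% for chains of 5 to 6 and 0 of 10 for dense chains.

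Few genes of any kind had a dense chain, so the gene lists were read mainly by chains of at least 5 intervals. Chains were assigned to genes they overlap, or to the nearest gene within 100 kb. A chain of 10 or more was assigned to 11 of 20665 protein-coding genes and to 0 of 34 T-lineage genes, which at that share does not set the list apart. Of the T-lineage genes 20 (58.8%) had a chain of at least 5, against 8.93% of all. The longest in this list had 8 intervals, at Runx3, which directs the CD8 fate. Its sum was 160 CPM in the wild type libraries and 192 CPM in N440K (log2 fold change 0.27, edgeR adjusted p = 0.0815). The longest chains at Bcl11b (6 intervals, log2 fold change -1.14, edgeR adjusted p = 3.27e-06) and Rag2 (5 intervals, -0.47, adjusted p = 0.0262) were called lower in N440K. No longest chain of a gene in this list was called higher. Over all tested chains 3.45% were called, and 5.68% of chains of 5 to 6 intervals, so these calls do not set the list apart. In the other lists, longest chains were called lower at the early progenitor genes Bcl11a, Mycn, Gfi1b, Cd34 and Tal1, and at Zbtb16. Those at Klrb1c and Socs3 were called higher. A list of signalling and activation genes, of which 20 were measured, held the only dense chain among the 9 lists, that of Myc, and 15 had a chain of at least 5.

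The maturation and egress list had 6 of 11 genes with a chain of at least 5. Its Socs3 chain held 9 intervals, and its Ccr9 and Socs1 chains held 8 each. Among genes of other lineages, a chain of at least 5 stood at 1 of 16 early progenitor genes, 5 of 12 natural killer and innate lymphoid genes, 0 of 8 B cell genes and 3 of 8 myeloid genes. It stood at 2 of 5 regulatory T cell genes and 3 of 7 housekeeping genes. Gene length was not taken into account, and these shares carry no test.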

How the data were processed

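Freshly isolated thymocytes were cross-linked and chromatin was precipitated with an antibody against Bcl11b, per the labels' protocols. The authors deposited raw read counts for 6 ChIP libraries over 93708 intervals, each 201 bp wide. The build mm10 is named in the submitters' processing notes, as are edgeR 3.38.2, bedtools, MACS2, SAMtools 1.9, fastp 0.20.0 and Bowtie2 2.3.5, without their roles. Pooling of libraries for peak calling, splitting of nearby peaks and treatment of duplicates are not given in the sources used here. Each could change chain length or counts. The deposited table of normalized values was not used.

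Intervals were filtered with filterByExpr by group (63098 kept, 30610 removed), scaled with TMM and fitted by the quasi-likelihood test of edgeR, genotype as the only term, Benjamini-Hochberg adjustment over the whole table. Counts summed per chain were fitted the same way with the same scaling. Fold change intervals are 95% intervals from the fit. Alternatives were DESeq2, limma voom, total counts, DESeq2 size factors, loess offsets (span 0.3), no filter, a replicate block, other chain rules and leaving out each library. No library was a copy of another: chi-square over its degrees of freedom lay at 1.24 or above for each pair. Scripts were tested on simulated data. Starts are counted from 1. The gene table, with 21887 protein-coding genes, was RefSeq's for GRCm38.p6.

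The loci and gene lists were chosen with earlier results of these data known. Named loci were all dense chains, and named intervals were the strongest of a chain and any called one. Outside this rule, intervals at Ier2 and Arl4c and the chains at Socs3, Runx3, Ccr9, Bcl11b and Rag2 were named after their values were seen. So were those at Socs1, Bcl11a, Mycn, Gfi1b, Cd34, Tal1, Zbtb16 and Klrb1c. The rule also took up to 10 called dense chains per direction and T-lineage genes with a dense chain, of which there were 0. Fits ran in R 4.3.3 with edgeR 4.0.16, limma 3.58.1 and DESeq2 1.42.0, and tables and plots in Python 3.11.15 with pandas 2.3.3, numpy 2.4.6 and matplotlib 3.10.9.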

Additional observations from a re-analysis of the deposited data

How the results depend on the processing

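The number of dense chains called on summed counts stayed at 0 in 14 of 17 alternatives. It was 1, at Arid2, with no filter on low counts (adjusted p = 0.0472, 2.55% of all chains called) and with limma voom (0.0142, 2.69% of all). With gaps of up to 5000 bp it was 3 of 119, against 3.79% of all chains, which does not set the 119 apart. These 3 were higher at Socs3 and lower at Tbc1d2b and at Tnfrsf25 with Espn. The number of member intervals called was 0 in 13 of 16 alternatives. With gaps of up to 5000 bp it was 4 of 1315 (2 at Socs3, 1 in Tbc1d2b, 1 near Cux1), against 1.14% of all intervals. Leaving out 1 library gave 0 to 1. The interval at Ier2 was called with the replicate block (1 interval, adjusted p = 0.0417, 1.19% of all intervals called) and without wild type replicate 2 (0.726% of all). Chains with an interval that departs from its chain numbered 0, and 1 of 119, at Ccr9, with gaps of up to 5000 bp (0.0847% of all chains). No chain had 15 or more intervals, so that alternative gave no value. The share of counts stayed higher in N440K in all 10 alternatives (exact p = 0.1 to 0.4). The log2 fold change of Arl4c, 0.000948, turned negative with total counts (-0.0179), loess offsets (-0.0853) and limma voom (-0.000988), and ran from -0.0636 to 0.0541 without 1 library. That of Slc43a2 turned positive with no filter (0.0288) and DESeq2 (0.0129), and ran from -0.0404 to 0.0785 without 1 library. Ly6e and Ssbp4 turned negative with loess offsets (-0.0116 and -0.0600). The cause was not tested. Same-numbered libraries deviated together at -0.00424, 0.0244 and 0.055, so the numbers do not pair them; apart from the Ier2 interval, the replicate block changed no call. The SE of the log2 fold change was 0.14 to 0.34 over the 106 intervals and 0.075 to 0.099 over the 10 summed chains. Changes of this size or somewhat larger could not be told from 0 at this depth and number of libraries. The Arid2 sum, at 0.23 with an SE of 0.075, was not called in the main edgeR fit.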
